A study of Homo sapiens with 26 samples.

Results

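The interferon response genes described here are 42 human genes that interferons are known to induce, named in a list and not picked by a threshold on measured values. All 42 were found under their own symbols among the 30331 named genes of a bulk RNA sequencing table from tumors of ZR751, an estrogen receptor-positive human breast cancer line. The 13 tumors each came from 1 mouse. Resistant tumors (5 mice) had received atirmociclib (PF-07220060), an oral inhibitor of the cell cycle kinase CDK4, for 84 to 91 days, with a treatment time label of 2040 hours, in a study of their own. Sensitive tumors (3 mice) had received the drug for 3 days, and vehicle tumors (5 mice) had received vehicle for 3 days, under a label that reads DMSO. Both drug groups received 60 mg/kg per dose, with 2 daily doses separated by 7 hours. All tumors grew under the skin of female NSG mice, a strain that lacks mature T, B and natural killer cells but keeps myeloid cells, from implanted cells. Tumors averaged 150 mm3 at the first dose and were taken 3 hours after the last one, and the batch label is 1 throughout. The resistant study has no vehicle mice here, so resistance, treatment length and study cannot be told apart wherever resistant tumors are compared, and a single cell line stands behind all groups.

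Cells make interferons when sensors such as RIG-I and MDA5 bind foreign or misplaced RNA. Secreted type I interferons bind a receptor pair, the kinases JAK1 and TYK2 phosphorylate factors such as STAT2, which joins IRF9 in the complex ISGF3, which binds a DNA element called ISRE near the genes it switches on. Type II interferon acts through JAK1 and JAK2 and leads to the binding of a different element called GAS. The induced proteins bind or cleave viral RNA, block viral entry and exit, and tag other proteins with the ubiquitin-like ISG15. Breast cancers differ in how strongly they express these genes without any infection, and inhibitors of CDK4 and CDK6 have been reported to raise them in breast tumor models.

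Promoters from RefSeq (GRCh38.p14, 250 bases before to 50 bases after each annotated start) were available for 34 of the 42 genes; none was at hand for DHX58, OASL, USP18, IFIT2, OAS2, IFITM2, IRF7 and MX2. The ISRE core was searched as GAAANNGAAA on both strands, with overlapping matches counted. It occurred in 23 of the 34 genes (67.6%), against 4.38% of 27305 genes with a promoter in the same table. The GAS core, searched as TTCNNNGAA, occurred in 11 of the 34 (32.4%), against 9.38% of all genes. Both are matches of letters and not measured binding sites. The windows below belong to genes whose level differed between groups, except BST2, which carries a doubled core and was not called in any comparison. Capitals mark matches of the ISRE core only, and each window runs 5′ to 3′ on the strand of its gene.
ISG15: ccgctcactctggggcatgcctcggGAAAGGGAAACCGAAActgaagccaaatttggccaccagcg
IFI6: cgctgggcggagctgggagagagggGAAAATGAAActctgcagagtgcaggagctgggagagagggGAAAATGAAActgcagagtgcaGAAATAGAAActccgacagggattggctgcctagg
IFIT1: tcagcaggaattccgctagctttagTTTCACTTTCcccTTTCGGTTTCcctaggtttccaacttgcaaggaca
LGALS3BP: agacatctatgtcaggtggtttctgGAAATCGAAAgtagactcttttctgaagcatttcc
SAMD9: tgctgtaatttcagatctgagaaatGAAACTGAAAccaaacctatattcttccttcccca
PLSCR1: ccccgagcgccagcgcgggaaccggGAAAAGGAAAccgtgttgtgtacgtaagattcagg
PARP9: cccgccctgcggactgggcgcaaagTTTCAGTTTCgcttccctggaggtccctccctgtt
BST2: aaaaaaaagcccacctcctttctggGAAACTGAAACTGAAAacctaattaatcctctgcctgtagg
These windows lie at chr1:1013359-1013424 (plus strand) for ISG15, chr1:27672251-27672373 (minus strand) for IFI6, chr10:89392482-89392554 (plus strand) for IFIT1 and chr17:78979947-78980006 (minus strand) for LGALS3BP. The others lie at chr7:93118081-93118140 (minus strand) for SAMD9, chr3:146544652-146544711 (minus strand) for PLSCR1, chr3:122564307-122564366 (minus strand) for PARP9 and chr19:17405720-17405785 (minus strand) for BST2. IFI6 holds 3 separate copies of the core, IFIT1 holds 2 on the opposite strand, and ISG15 and BST2 each hold 2 that overlap. The window of PARP9 is also that of its neighbour DTX3L, read from the other strand. TRIM25, IFI35 and DDX58, described below as called, had no match of the searched ISRE core in their promoters, and IFI35 held a GAS core. The search fixed the spacing of the GAAA repeats at 2 bases. DDX58, IFI35 and OAS1 hold GAAA repeats at a shorter spacing, which it did not count, so no match does not mean no ISRE.

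The unit is TPM, a share of all transcripts that corrects for gene length and adds up to a fixed total in each library, so levels can be compared between genes. The value of a mouse is the mean of its 2 libraries, A and B, and the sources used here do not say at which step they were split. Levels ranged widely: LGALS3BP, BST2 and IFI6 reached 623, 334 and 208 TPM in their highest mouse, while 10 of the 42 did not reach a mean of 1 TPM in at least 3 mice and were not tested. These 10 are IFI44, IFI44L, IFIT3, IFITM3, OASL, XAF1, SAMD9L, RSAD2, HERC5 and CMPK2. Of the 32 genes tested, IFI27, IFIT1, IFIT2 and IFITM1 met the filter only through resistant mice, so their place among the tested genes already depends on being higher there. Log2 differences are on the log2(TPM + 1) scale, relative to the median of all 14079 genes tested, and understate the change of low genes. Errors of TPM are SDs over mice, errors of log2 differences are SEs, and calls were made at an adjusted p under 0.05 in limma.

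**Figure D1:**
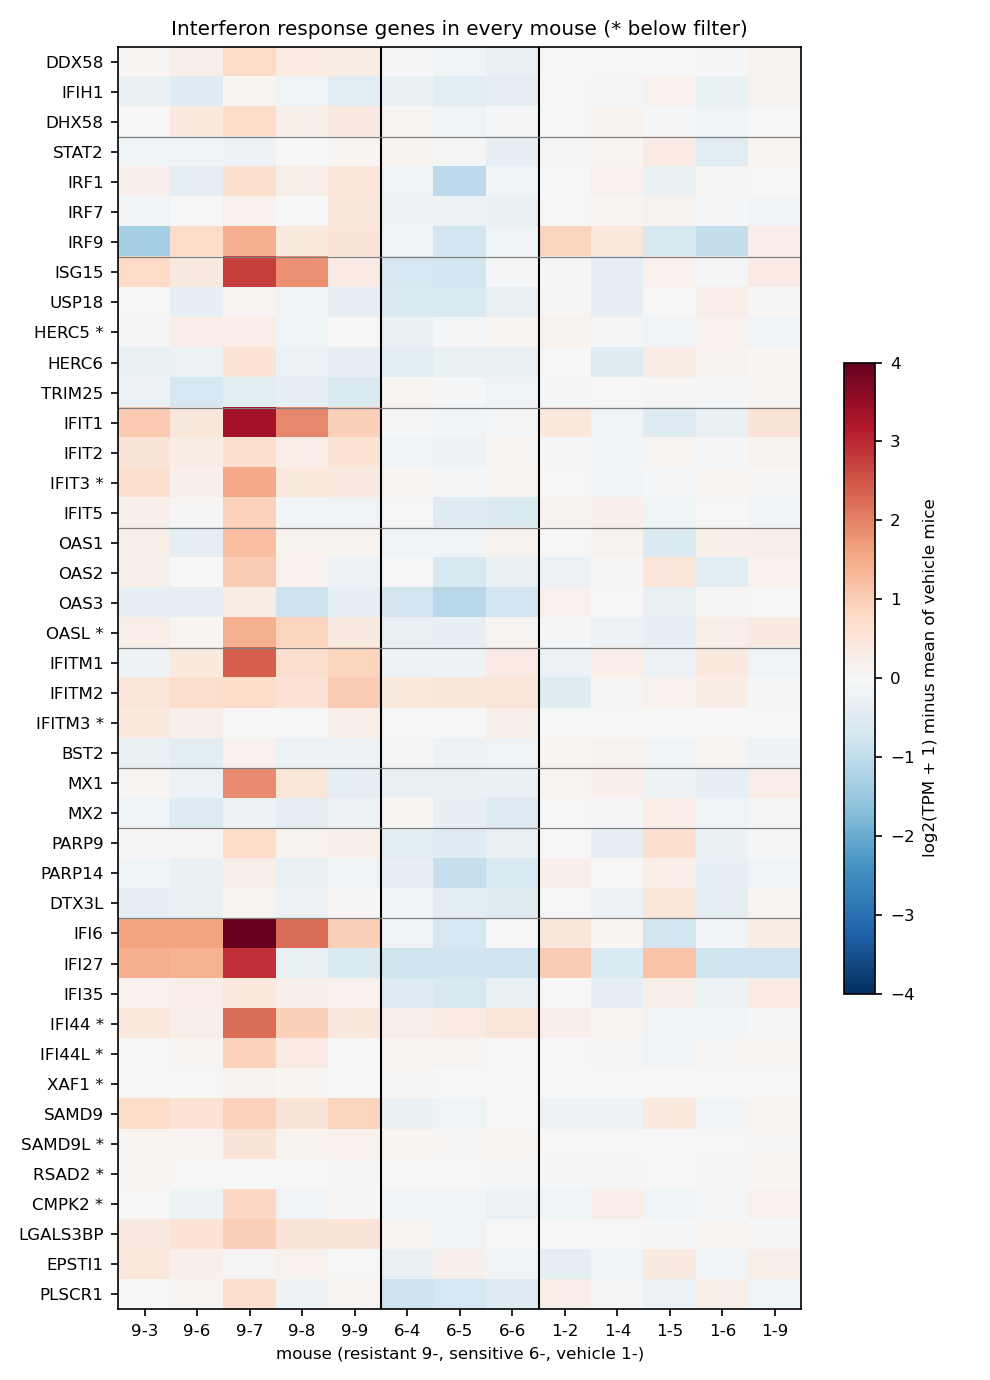
Levels of the 42 interferon response genes (rows, grouped by role) in the 13 mice (columns: resistant, sensitive, vehicle), as log2(TPM + 1) minus the mean of the vehicle mice, with colours limited to 4 in either direction. Asterisks mark the 10 genes below the filter, and the column of resistant mouse 9-7 holds the highest value of 22 of the 32 genes tested.

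One resistant tumor stood apart from all others in these genes. Mouse 9-7 had the highest level of the 13 mice in 22 of the 32 tested genes (68.8%), against 8.22% of all genes tested. The 22 include IFI27, IFIT1, IFIT2 and IFITM1, which met the filter only through resistant mice. Within the resistant group mouse 9-7 was highest in 26 of 32 (81.2%), against 29.2% of all genes. The mean log2(TPM + 1) of the 32 genes was 3.97 in mouse 9-7 and 3.14 to 3.27 in the other resistant mice, against 2.65 to 2.83 in sensitive and 2.93 to 3.10 in vehicle mice. The mean over all genes tested was 4.13 in mouse 9-7, inside the range over all mice of 4.05 to 4.21. Both libraries of this mouse shared the high level of IFI6, at 197 and 218 TPM, and of ISG15, at 35.9 and 41.7 TPM. They differed for IFI27, at 21.8 and 2.28 TPM. The sensitive mouse 6-5 was the lowest of the 13 in 11 of 32 genes, against 12.3% of all genes.

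**Figure D2:**
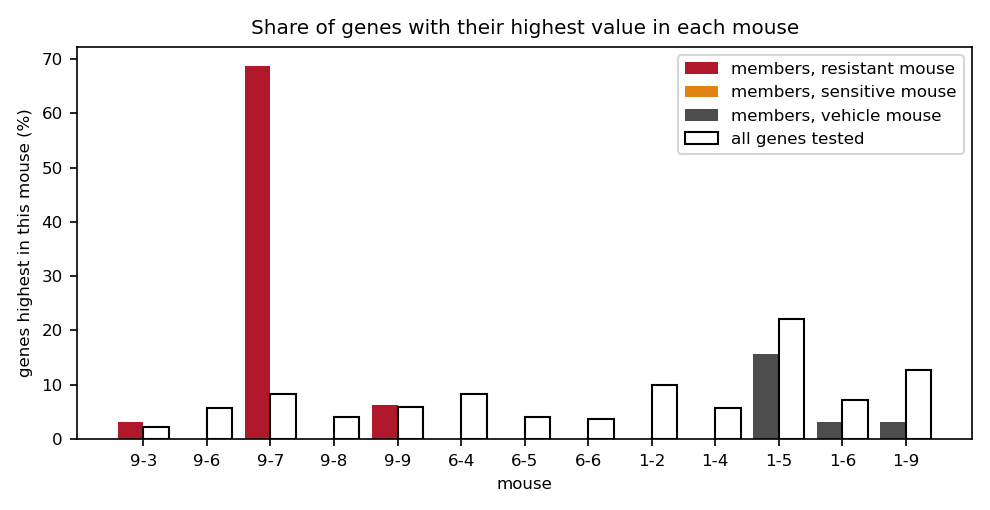
Share of genes (%) whose highest value fell in each mouse, for the 32 interferon response genes tested (filled bars) and all 14079 genes tested (open bars). Mouse 9-7 held 68.8% of the interferon response genes and 8.22% of all genes; no interferon response gene was highest in a sensitive mouse.

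The comparison of resistant with sensitive tumors asks how tumors growing under the drug differ from tumors that have just met it. Of the 32 genes, 11 (34.4%) were higher and 1 was lower in resistant tumors, against a background of 9.56% of all genes called higher and 11.6% called lower. The higher genes were IFI6, ISG15, IFIT1, SAMD9, PLSCR1, IFI35, PARP9, LGALS3BP, IFIT2, DDX58 and DHX58, and the lower one was TRIM25. IFIT1 and IFIT2, and IFI27 and IFITM1 among the uncalled, met the filter only through resistant mice, so counts of the 32 lean toward higher. The median log2 difference was 0.58, and 30 of 32 genes were above the median of all genes. In 14 of 32 genes every resistant mouse was above every sensitive mouse, which was so for 12.3% of all genes. All genes split into 1346 higher and 1631 lower as fitted and into 1715 higher and 1331 lower with median-of-ratios scaling. With that scaling, and with quantile normalization, 15 of the 32 were higher and 1 lower.

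Resistant tumors were set against vehicle tumors to place them beside tumors never given the drug. Of the 32 genes, 9 (28.1%) were higher (LGALS3BP, IFITM2, SAMD9, IFI6, IFIT2, IFIT1, ISG15, DHX58 and DDX58) and TRIM25 was lower. The background was 11.5% of all genes higher and 32.5% lower. IFIT1 and IFIT2, among the 9, met the filter only through resistant mice, so the 28.1% leans toward higher. The median log2 difference of the 32 was 0.37, with 25 above the median gene, and 5 genes had every resistant mouse above every vehicle mouse, against 6.63% of all genes. All genes split into 1624 higher and 4570 lower as fitted, into 2553 higher and 2432 lower after median-of-ratios scaling, and into 2333 higher and 2773 lower after quantile normalization. The 32 genes had 10 higher and 1 lower under both scalings. This comparison uses the same resistant mice as the one with sensitive tumors.

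After 3 days of drug, none of the 32 genes was higher and 5 were lower in sensitive than in vehicle tumors: OAS3, PLSCR1, PARP14, USP18 and IFI35. At an unadjusted p under 0.05, limma had 1 gene higher, IFITM2. Of all genes, 3.16% were called higher and 12.6% lower, so the 15.6% of the 32 that were lower is near the background. The median log2 difference was -0.21 and 26 of the 32 lay below the median gene. Every sensitive mouse was below every vehicle mouse in 3 genes, against 16.4% of all genes. All genes split into 445 higher and 1767 lower as fitted. Median-of-ratios scaling gave 771 higher and 1062 lower, and quantile normalization gave 938 higher and 989 lower. Among the 32, these scalings left 3 and 2 lower genes and 1 higher one, IFITM2. None of the 5 calls held in every alternative tried, and without mouse 6-5 none was left. Calls over all genes also fell without 6-5, to 99 higher and 802 lower.

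**Figure D3:**
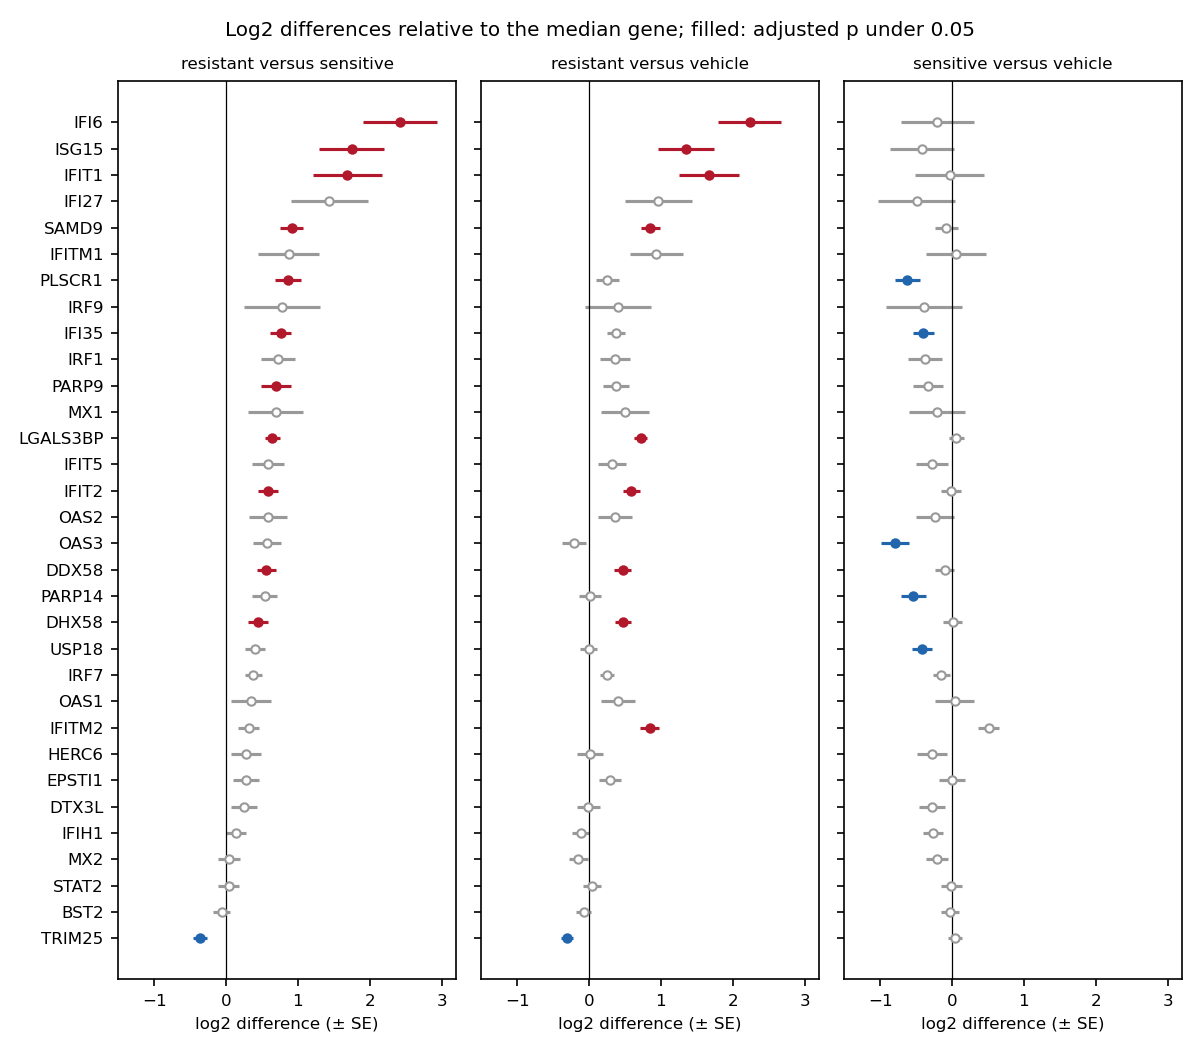
Log2 differences of the 32 tested genes (resistant minus sensitive, resistant minus vehicle, sensitive minus vehicle) relative to the median of all genes, with SEs as bars. Filled points were called: 11 higher and 1 lower against sensitive, 9 higher and 1 lower against vehicle, and 5 lower in sensitive against vehicle.

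Among the RNA sensors, DDX58 (RIG-I) and DHX58 (LGP2), which detect double-stranded RNA in the cytoplasm, were higher in resistant tumors in both comparisons, and IFIH1 (MDA5) was not called. In resistant mice 9-3, 9-6, 9-7, 9-8 and 9-9, sensitive mice 6-4, 6-5 and 6-6 and vehicle mice 1-2, 1-4, 1-5, 1-6 and 1-9, an order kept below, DDX58 had 5.58, 6.23, 9.53, 6.74 and 6.63 TPM in resistant mice, against 4.99, 4.48 and 4.06 TPM in sensitive mice and 5.08, 5.17, 5.21, 4.83 and 5.79 TPM in vehicle mice. All resistant mice were above all sensitive mice, with a log2 difference of 0.56 ± 0.14 (adjusted p = 0.0176). Resistant and vehicle mice overlapped, with 9-3 below 1-9, at 0.47 ± 0.12 (adjusted p = 0.0325). DHX58 had 12.9, 17.3, 22.3, 15.7 and 16.9 TPM in resistant mice, against 13.7, 11.5 and 12.3 TPM in sensitive mice and 13.1, 14.5, 12.7, 11.9 and 13.4 TPM in vehicle mice. Its groups overlapped through resistant mouse 9-3, and the differences were 0.45 ± 0.13 (adjusted p = 0.0473) to sensitive and 0.47 ± 0.12 (adjusted p = 0.0294) to vehicle tumors. The call of DDX58 was lost against vehicle tumors without 1-2, 1-4, 1-6 or 9-7 (adjusted p = 0.0577 to 0.0663) and against sensitive tumors without 6-5 or 6-6 (adjusted p = 0.0613 to 0.0689). That of DHX58 was lost against vehicle tumors without 1-6, 9-6, 9-7 or 9-9 (adjusted p = 0.0514 to 0.0652) and against sensitive tumors without any 1 of 10 mice (adjusted p = 0.0544 to 0.161). IFIH1 had 5.10 to 8.15 TPM in resistant, 5.50 to 6.27 TPM in sensitive and 6.24 to 8.85 TPM in vehicle mice.

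None of the 4 transcription factors was called in any comparison. STAT2, a part of ISGF3, had 25.8 to 32.4 TPM in resistant, 24.0 to 33.3 TPM in sensitive and 22.2 to 38.2 TPM in vehicle mice, and the groups overlapped widely. IRF9, the DNA-binding part of ISGF3, varied within groups, at 0.445 to 9.07 TPM in resistant, 1.18 to 2.36 TPM in sensitive and 0.920 to 5.87 TPM in vehicle mice. The 2 libraries of a mouse also differed for IRF9, as in 9-8 at 1.10 and 6.53 TPM. Their median difference was 0.918 on the log2 scale, against 0.0944 to 0.108 over all genes. IRF1, which binds ISRE-like sites and is itself induced by interferon, had 5.23 to 11.8 TPM in resistant, 3.02 to 6.53 TPM in sensitive and 5.89 to 8.36 TPM in vehicle mice. The log2 difference of IRF1 between resistant and sensitive tumors was 0.72 ± 0.23 (adjusted p = 0.0552). It passed the test in 6 of 24 alternatives, median-of-ratios scaling and quantile normalization among them, with adjusted p up to 0.286 in others. IRF7, which switches on interferon genes, had 8.41 to 12.9 TPM in resistant, 7.58 to 7.85 TPM in sensitive and 8.60 to 10.2 TPM in vehicle mice. All its resistant mice were above all its sensitive mice, at 0.38 ± 0.12 (adjusted p = 0.0584), a difference that passed the test with median-of-ratios scaling and with quantile normalization.

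ISG15, the ubiquitin-like tag (GRCh38, GENCODE 29, chromosome 1, 1001138 to 1014540), had 9.26, 6.63, 38.8, 19.9 and 6.36 TPM in resistant mice, against 2.67, 2.58 and 4.61 TPM in sensitive mice and 4.55, 3.53, 5.66, 4.69 and 6.41 TPM in vehicle mice. Mice 9-7 and 9-8 were far above the other resistant mice, every resistant mouse was above every sensitive mouse, and 9-9 lay just below 1-9. The log2 differences were 1.75 ± 0.45 (adjusted p = 0.0179) to sensitive and 1.35 ± 0.39 (adjusted p = 0.0223) to vehicle tumors. The call against vehicle was lost without 1-4 or 9-8 (adjusted p = 0.0536 to 0.0566), and the one against sensitive tumors without 6-4 or 6-5 (adjusted p = 0.0705 to 0.0723). USP18, which removes ISG15 from proteins and restrains the type I receptor, had 12.9, 9.97, 13.9, 11.5 and 10.0 TPM in resistant mice, against 8.22, 8.08 and 10.2 TPM in sensitive mice and 13.2, 10.1, 12.6, 15.6 and 13.3 TPM in vehicle mice. It was lower in sensitive than in vehicle tumors, at a log2 difference of -0.42 ± 0.14 (adjusted p = 0.0275), with 6-6 inside the range of vehicle mice, and it was not called in resistant tumors. The call of USP18 was lost without 1-2, 1-9, 6-4 or 6-5 (adjusted p = 0.0518 to 0.136). TRIM25, a ligase for ubiquitin and ISG15 that activates RIG-I (chromosome 17, 56836387 to 56914080), had 50.4, 37.1, 43.6, 46.9 and 39.1 TPM in resistant mice, against 62.2, 57.2 and 53.8 TPM in sensitive mice and 55.7, 60.3, 60.5, 55.3 and 63.6 TPM in vehicle mice. Every resistant mouse was below every other mouse, and no other of the 32 genes was called lower in resistant tumors by the main settings. With other settings, OAS3, BST2 or IFIH1 was also called lower than in vehicle tumors. The differences were -0.37 ± 0.10 (adjusted p = 0.0100) to sensitive and -0.31 ± 0.08 (adjusted p = 0.000944) to vehicle tumors. The call against sensitive tumors was lost without 6-4 (adjusted p = 0.0538). HERC6, an interferon-induced relative of the ISG15 ligase HERC5, had 1.53 to 3.66 TPM in resistant, 1.32 to 1.67 TPM in sensitive and 1.28 to 2.89 TPM in vehicle mice and was not called; HERC5 stayed under 1 TPM in every mouse.

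The IFIT proteins bind viral RNA that lacks the cap structure of host messages. IFIT1 (chromosome 10, 89392546 to 89406486) had 2.17, 1.10, 14.2, 4.74 and 1.98 TPM in resistant mice, against 0.455, 0.425 and 0.450 TPM in sensitive mice and 1.03, 0.380, 0.0750, 0.275 and 1.16 TPM in vehicle mice. Every resistant mouse was above every sensitive mouse and 9-6 lay just below 1-9; mouse 9-7 was the highest and 9-8 the next. The differences were 1.69 ± 0.48 (adjusted p = 0.0279) to sensitive and 1.67 ± 0.42 (adjusted p = 0.00945) to vehicle tumors. IFIT2 had 1.09, 0.775, 1.28, 0.730 and 1.12 TPM in resistant mice, against 0.325, 0.265 and 0.530 TPM in sensitive mice and 0.410, 0.335, 0.565, 0.375 and 0.585 TPM in vehicle mice. All resistant mice were above all others, by 0.58 ± 0.14 (adjusted p = 0.0148) and 0.59 ± 0.12 (adjusted p = 0.00765) on the log2 scale, at a level near 1 TPM. Against sensitive tumors, the call of IFIT1 was lost without 6-4, 6-5, 6-6 or 9-8 (adjusted p = 0.0526 to 0.0855) and that of IFIT2 without 6-4 or 6-5 (adjusted p = 0.0590 to 0.0707). Against vehicle tumors, no single mouse ended the call of IFIT1, while IFIT2 no longer met the filter without 9-3, 9-7 or 9-9. IFIT5 had 2.12 to 5.49 TPM in resistant, 1.37 to 2.48 TPM in sensitive and 2.05 to 2.96 TPM in vehicle mice and was not called. IFIT3 had 0.245 to 2.10 TPM in resistant, 0.0350 to 0.150 TPM in sensitive and 0 to 0.170 TPM in vehicle mice, below the filter. The IFIT genes are similar in sequence and lie side by side on chromosome 10, and the sources used here do not say how reads shared between them were assigned.

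The OAS enzymes sense double-stranded RNA and make the oligoadenylate messengers that activate the nuclease RNase L. OAS3 (chromosome 12, 112938352 to 112973249) had 22.8, 23.2, 37.4, 16.5 and 22.7 TPM in resistant mice, against 18.0, 13.4 and 17.4 TPM in sensitive mice and 34.4, 30.9, 24.7, 31.7 and 30.7 TPM in vehicle mice. All sensitive mice were below all vehicle mice, at a log2 difference of -0.80 ± 0.19 (adjusted p = 0.00781), the largest fall among the 32 genes at 3 days. The call was lost without 6-5 (adjusted p = 0.0619). Of the resistant mice, 9-8 lay within the sensitive range, 9-7 above the vehicle range and the rest between them, and OAS3 was called against neither group. OAS1 had 8.91 to 29.2 TPM in resistant, 10.8 to 13.4 TPM in sensitive and 7.97 to 14.4 TPM in vehicle mice. OAS2 had 1.32 to 4.52 TPM in resistant, 0.780 to 1.71 TPM in sensitive and 0.990 to 2.86 TPM in vehicle mice. Neither was called. OASL had 0.555 to 2.94 TPM in resistant, 0.165 to 0.590 TPM in sensitive and 0.155 to 0.885 TPM in vehicle mice and was not tested.

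Of the 4 genes grouped as blocking viruses at membranes (IFITM1, IFITM2, IFITM3 and BST2), only IFITM2 was called. IFITM2, which hinders the fusion of viruses with cell membranes (chromosome 11, 307631 to 315272), had 74.9, 86.7, 88.3, 79.7 and 108 TPM in resistant mice, against 69.4, 72.3 and 74.6 TPM in sensitive mice and 37.5, 54.8, 59.0, 65.6 and 51.6 TPM in vehicle mice. The 3 groups did not overlap: every resistant mouse was above every sensitive mouse and every sensitive mouse was above every vehicle mouse. The difference was called between resistant and vehicle tumors, at 0.84 ± 0.13 (adjusted p = 0.000750). It was not called between sensitive and vehicle, at 0.51 ± 0.15 (adjusted p = 0.0602), or between resistant and sensitive, at 0.32 ± 0.15 (adjusted p = 0.213). IFITM1 had 0.145 to 5.98 TPM in resistant, 0.160 to 0.650 TPM in sensitive and 0.120 to 0.740 TPM in vehicle mice and was not called. IFITM3 stayed at or under 0.325 TPM. IFITM2 and IFITM3 are nearly identical in sequence and IFITM1 overlaps IFITM2 in the annotation, so the division of reads among the 3 is uncertain. BST2, or tetherin, which holds budding viruses at the cell surface, had 216 to 334 TPM in resistant, 255 to 308 TPM in sensitive and 257 to 331 TPM in vehicle mice and was called in no comparison. The dynamin-like antiviral GTPases MX1 and MX2 were not called either. MX1 had 0.630 to 6.94 TPM in resistant, 0.720 to 0.790 TPM in sensitive and 0.630 to 1.57 TPM in vehicle mice. MX2 had 0.915 to 1.44 TPM in resistant, 0.920 to 1.88 TPM in sensitive and 1.47 to 2.27 TPM in vehicle mice.

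PARP9 and DTX3L form a complex that modifies histones and acts in interferon signaling, and PARP14 is a related ADP-ribosyltransferase. PARP9 had 10.7, 10.7, 17.8, 11.3 and 11.9 TPM in resistant mice, against 7.36, 6.87 and 8.07 TPM in sensitive mice and 10.1, 7.87, 16.9, 8.28 and 9.81 TPM in vehicle mice. All resistant mice were above all sensitive mice, at 0.70 ± 0.21 (adjusted p = 0.0388), while vehicle mouse 1-5 was nearly as high as 9-7. The call was lost without any 1 of 7 mice (adjusted p = 0.0503 to 0.126). DTX3L had 8.89 to 12.6 TPM in resistant, 8.08 to 10.7 TPM in sensitive and 8.55 to 16.7 TPM in vehicle mice and was not called. PARP14 had 4.15, 3.84, 5.89, 3.76 and 4.29 TPM in resistant mice, against 3.64, 2.08 and 2.79 TPM in sensitive mice and 5.70, 4.84, 5.99, 3.60 and 4.22 TPM in vehicle mice. It was lower in sensitive than in vehicle tumors, at -0.54 ± 0.17 (adjusted p = 0.0295), with 6-4 just above the lowest vehicle mouse. The call was lost without 1-2, 6-5 or 6-6 (adjusted p = 0.0623 to 0.180). Against sensitive tumors, all resistant mice had higher PARP14, at 0.54 ± 0.17 (adjusted p = 0.0583), which missed the threshold. This difference passed in 8 of 24 alternatives, median-of-ratios scaling and quantile normalization among them, with adjusted p up to 0.254 in others. PARP9 and DTX3L overlap on opposite strands, and without a stated strand setting their reads cannot be told apart where they overlap.

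Of 7 other effectors tested, 5 (71.4%) were higher in resistant than in sensitive tumors and 3 (42.9%) higher than in vehicle tumors, beside 9.56% and 11.5% of all genes. IFI6, a small membrane protein that opposes cell death and viral replication (chromosome 1, 27666061 to 27672218), had 36.7, 36.9, 208, 57.9 and 23.3 TPM in resistant mice, against 10.1, 6.84 and 11.3 TPM in sensitive mice and 16.1, 12.2, 6.56, 10.5 and 14.4 TPM in vehicle mice. Every resistant mouse was above every other mouse, and 9-7 was more than 3 times as high as the next. The differences were 2.42 ± 0.51 (adjusted p = 0.00637) to sensitive and 2.23 ± 0.44 (adjusted p = 0.00206) to vehicle tumors, the largest of the 32 genes in both comparisons. LGALS3BP, a secreted glycoprotein that binds galectins (chromosome 17, 78971238 to 78980109), had 406, 467, 623, 458 and 457 TPM in resistant mice, against 340.0, 292 and 314 TPM in sensitive mice and 319, 315, 308, 343 and 309 TPM in vehicle mice. Again all resistant mice were above all others, by 0.64 ± 0.11 (adjusted p = 0.00243) and 0.72 ± 0.09 (adjusted p = 0.000293), while sensitive and vehicle mice overlapped. SAMD9, a cytoplasmic protein that restricts poxviruses (chromosome 7, 93099513 to 93118023), had 3.19, 2.69, 3.75, 2.56 and 3.63 TPM in resistant mice, against 1.11, 1.24 and 1.47 TPM in sensitive mice and 1.17, 1.19, 2.30, 1.34 and 1.73 TPM in vehicle mice. Its resistant mice were also above all others and differed little among themselves, with differences of 0.92 ± 0.16 (adjusted p = 0.00259) and 0.85 ± 0.14 (adjusted p = 0.00104). The 6 calls of IFI6, LGALS3BP and SAMD9 held in every alternative in which the gene was tested (24, 24 and 23; SAMD9 did not meet a filter at a mean of 5 TPM), with adjusted p up to 0.0355, 0.0169 and 0.0175 against sensitive tumors and up to 0.00553, 0.00120 and 0.00807 against vehicle.

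A second pair of effectors was lower at 3 days and higher in resistant tumors than in sensitive ones. IFI35, a cytoplasmic partner of NMI, had 9.61, 10.2, 11.5, 9.76 and 9.66 TPM in resistant mice, against 5.60, 5.09 and 6.67 TPM in sensitive mice and 8.57, 6.19, 9.99, 7.22 and 10.7 TPM in vehicle mice. Resistant mice were all above sensitive mice and lay inside or just above the range of vehicle mice, with 6-6 overlapping the vehicle range. The differences were -0.40 ± 0.15 (adjusted p = 0.0451) for sensitive against vehicle and 0.76 ± 0.15 (adjusted p = 0.00537) for resistant against sensitive tumors. PLSCR1, a lipid scramblase that also blocks viral entry, had 7.07, 7.56, 11.6, 5.91 and 7.40 TPM in resistant mice, against 3.46, 3.96 and 4.60 TPM in sensitive mice and 8.56, 6.71, 5.75, 8.43 and 6.10 TPM in vehicle mice. Sensitive mice were below all others, at -0.62 ± 0.18 (adjusted p = 0.0187) against vehicle, and resistant tumors were higher than sensitive ones by 0.86 ± 0.18 (adjusted p = 0.00718). The fall at 3 days was no longer called for IFI35 without any 1 of 10 mice (adjusted p = 0.0546 to 0.203) and for PLSCR1 without 6-4 or 6-5 (adjusted p = 0.0575 to 0.0799), while no single mouse ended the calls between resistant and sensitive tumors. Resistant and vehicle tumors were not called apart for either gene, at 0.38 ± 0.13 (adjusted p = 0.143) for IFI35 and 0.26 ± 0.15 (adjusted p = 0.551) for PLSCR1. A difference between the resistant and sensitive groups here shares the sensitive mice with the fall at 3 days, so the 2 values are not independent.

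IFI27, a mitochondrial protein used in blood as a marker of interferon response, varied within groups, at 0.170 to 12.1 TPM in resistant and 0 to 2.76 TPM in vehicle mice, and was listed at 0 in all 3 sensitive mice. Libraries A and B differed widely in some mice, at 21.8 and 2.28 TPM in 9-7, 7.02 and 0 TPM in 9-6 and 0 and 5.51 TPM in 1-5. IFI27 was not called in any comparison, at 1.44 ± 0.54 (adjusted p = 0.0805) for resistant against sensitive tumors. EPSTI1, first described in breast cancer cells grown with fibroblasts, had 1.04 to 1.77 TPM in resistant, 0.705 to 1.39 TPM in sensitive and 0.640 to 1.66 TPM in vehicle mice and was not called. Among the 10 untested genes, IFI44 had 0.270 to 4.09 TPM in resistant, 0.270 to 0.525 TPM in sensitive and 0 to 0.245 TPM in vehicle mice. Its neighbour IFI44L had 0.0600 to 1.05 TPM in resistant, 0.0800 to 0.175 TPM in sensitive and 0 to 0.140 TPM in vehicle mice. CMPK2, a mitochondrial nucleotide kinase, had 0.0550 to 1.14 TPM in resistant, 0.0300 to 0.120 TPM in sensitive and 0.0650 to 0.450 TPM in vehicle mice. SAMD9L, a close relative of SAMD9, had 0.0950 to 0.465 TPM in resistant, 0.0600 to 0.10 TPM in sensitive and 0 to 0.0450 TPM in vehicle mice. XAF1 and RSAD2, which encodes the antiviral enzyme viperin, stayed at or under 0.0950 TPM in every mouse. With no filter, IFI44, IFIT3 and SAMD9L were called higher in resistant than in vehicle tumors, at log2 0.89, 0.66 and 0.25 (adjusted p = 0.0473, 0.0263 and 0.0249), and the other 7 were not.

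**Figure D4:**
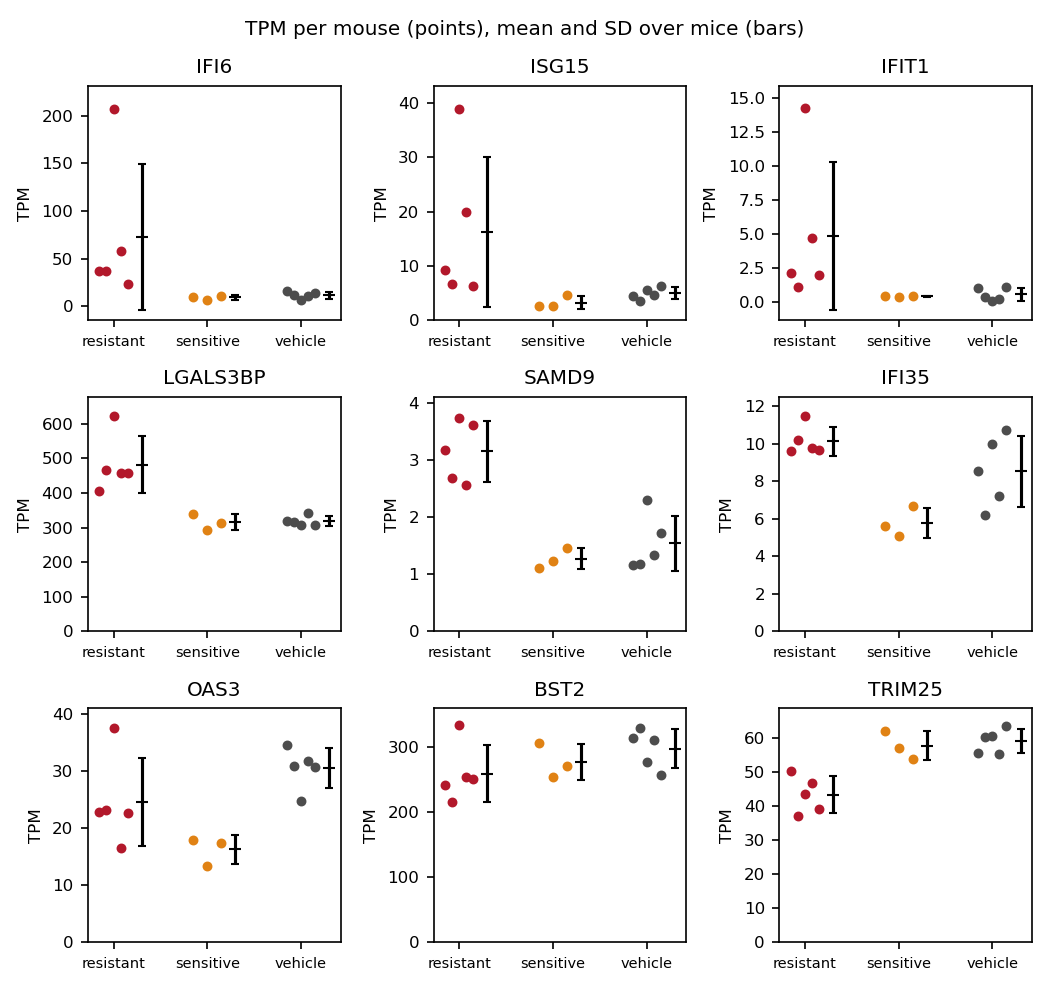
TPM of 9 interferon response genes in each mouse (points; resistant, sensitive, vehicle), with the mean and SD over mice as bars. IFI6, LGALS3BP and SAMD9 had every resistant mouse above every other, TRIM25 had every resistant mouse below, and OAS3 was lowest in sensitive mice with one resistant mouse among them.

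Leaving out mouse 9-7 lowered most differences of resistant tumors. Against vehicle tumors, 6 genes were higher in the other 4 resistant mice: IFI6 at 1.75 (adjusted p = 0.000470), IFIT1 at 1.23 (adjusted p = 0.00676), ISG15 at 0.97 (adjusted p = 0.0330), IFITM2 at 0.85 (adjusted p = 0.00196), SAMD9 at 0.81 (adjusted p = 0.00311) and LGALS3BP at 0.63 (adjusted p = 0.000104). DHX58 and DDX58 were no longer called, at 0.39 (adjusted p = 0.0652) and 0.37 (adjusted p = 0.0663), and IFIT2 and IFITM1 no longer met the filter. Then 4 genes were lower in place of 1: TRIM25 at -0.30 (adjusted p = 0.00215), joined by OAS3 at -0.36 (adjusted p = 0.00699), IFIH1 at -0.19 (adjusted p = 0.0278) and BST2 at -0.16 (adjusted p = 0.0132). Of all 14023 genes tested in that fit, 1425 were higher and 4331 lower, so lower calls were common among genes in general. Against sensitive tumors, 8 genes were higher without 9-7, among them IFI6 at 1.94 (adjusted p = 0.00157), ISG15 at 1.37 (adjusted p = 0.0158), IFIT1 at 1.25 (adjusted p = 0.0198) and PLSCR1 at 0.74 (adjusted p = 0.00873). PARP9 and DHX58 were no longer called, at 0.58 (adjusted p = 0.0732) and 0.36 (adjusted p = 0.0780). Against sensitive tumors, 5 genes were higher without 6-5 and 7 without 6-4 or 6-6. Calls over all genes fell as well. Against sensitive tumors, 1122 of all genes were higher without 9-7, 675 without 6-5, 890 without 6-4 and 997 without 6-6, in place of 1346.

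**Figure D5:**
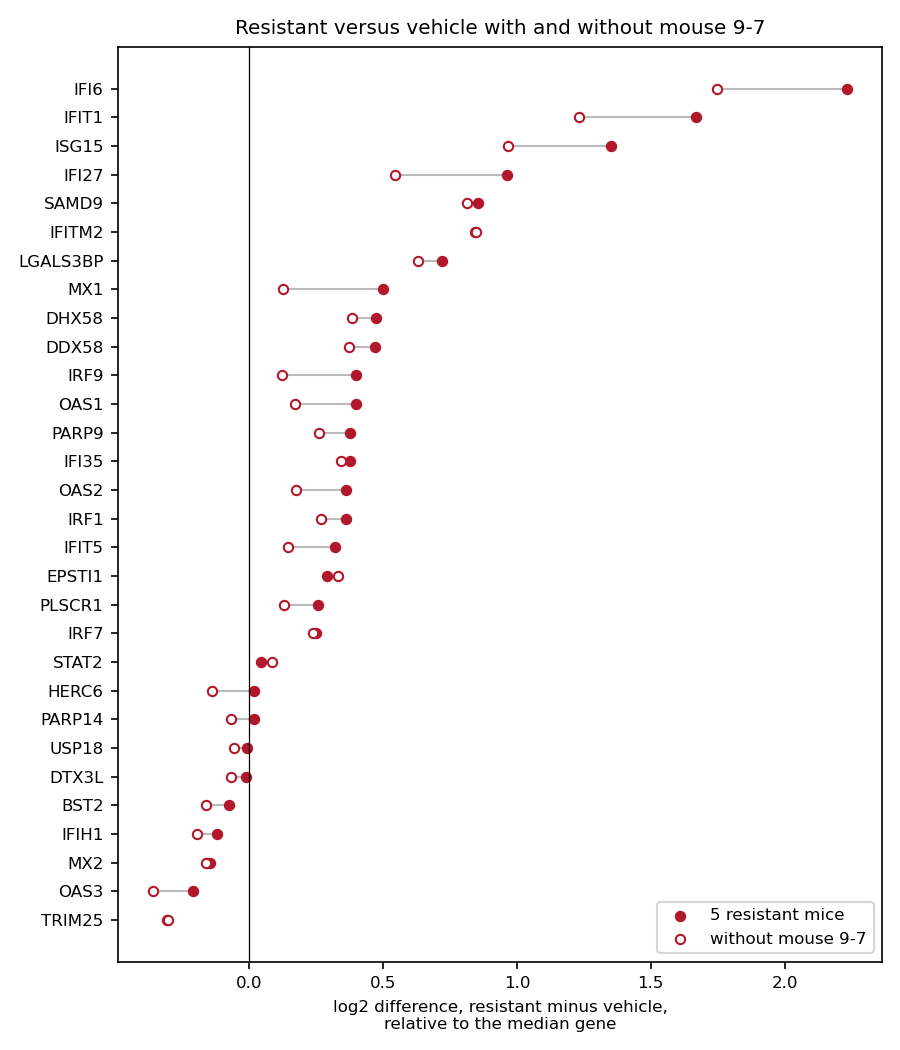
Log2 differences between resistant and vehicle tumors relative to the median of all genes, with all 5 resistant mice (filled) and without mouse 9-7 (open), for the 30 genes tested in both fits. IFI6 has 2.23 with and 1.75 without this mouse, and TRIM25, SAMD9 and IFITM2 hardly move.

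The spread between mice was wider for these genes than for genes in general. The median SD of log2(TPM + 1) over the 32 genes was 0.262 in resistant mice, 0.162 in sensitive mice and 0.267 in vehicle mice, against 0.153, 0.128 and 0.179 over all genes tested. Without mouse 9-7, the resistant value was 0.179, against 0.142 over all genes. The median difference between the 2 libraries of a mouse was 0.127 to 0.142 over the 32 genes, against 0.0944 to 0.108 over all genes. ISG15 and IFI6 had SDs of 1.07 and 1.19 among resistant mice, and 0.713 and 0.518 without 9-7.

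The same calls were also set beside the promoter matches, with no test. Of 17 tested genes with the core, 7 were higher in resistant than in sensitive tumors and 5 higher than in vehicle tumors, and none was lower. Of 8 tested genes without it, 2 were higher and 1 lower against sensitive tumors, and 1 was higher and 1 lower against vehicle tumors. Over all genes, 9.56% were higher and 11.6% lower against sensitive tumors, and 11.5% higher and 32.5% lower against vehicle tumors. The median log2 differences of resistant against vehicle tumors were 0.38 with the core and 0.37 without. Those against sensitive tumors were 0.69 with the core and 0.45 without, and those of sensitive against vehicle tumors were -0.27 with the core and -0.19 without. BST2, with the doubled core shown above, was not called, while IFI35 and DDX58, with no match of the searched core, were among the genes called higher. The 8 genes without a match include IFI35, OAS1 and DDX58, which hold GAAA repeats at a shorter spacing. The split therefore does not separate genes with an ISRE from genes without one. IFI27, IFIT1 and IFITM1, among the 17, met the filter only through resistant mice. IFIT1 is also among the 7 and the 5 called higher, so these counts lean toward higher.

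Other genes of the interferon pathway, 60 in all with 42 tested, moved in both directions. Among 9 interferon genes none was tested: IFNA1, IFNB1, IFNG, IFNK and IFNL3 were listed at 0 in every mouse and the highest, IFNL1, reached 0.380 TPM. Of 9 receptors and kinases, JAK1 and JAK2 were higher in resistant tumors in both comparisons. JAK2 averaged 10.5 ± 4.09 TPM in resistant mice (SD, n = 5), 3.58 ± 0.698 TPM in sensitive mice (SD, n = 3) and 2.83 ± 0.713 TPM in vehicle mice (SD, n = 5). The log2 differences of resistant tumors to vehicle were 1.67 (adjusted p = 9.17e-05) for JAK2 and 0.83 (adjusted p = 3.00e-05) for JAK1, while the interferon gamma receptor chain IFNGR2 was lower at -0.27 (adjusted p = 0.000277).

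UBA7 and UBE2L6, the enzymes that activate ISG15 and pass it on, were both higher in resistant tumors. Their log2 differences were 0.72 and 0.63 to sensitive and 0.62 and 0.48 to vehicle tumors. TMEM173, which encodes the DNA-sensing adaptor STING, was higher by 0.72 (adjusted p = 0.0127) relative to sensitive and by 0.96 (adjusted p = 0.000564) to vehicle tumors. Over the 24 alternatives, adjusted p against sensitive tumors reached 0.0746 for TMEM173 (without 6-4), 0.0935 for UBA7 and 0.0724 for UBE2L6, and against vehicle tumors 0.00207, 0.0593 and 0.120; those of JAK1 and JAK2 held in all of them in both comparisons. Against vehicle tumors, 11 of the 42 (26.2%) were higher and 10 (23.8%) lower in resistant tumors, beside 11.5% and 32.5% of all genes. The 11 higher were JAK2, TMEM173, JAK1, TRIM14, UBA7, PARP12, STAT3, TLR3, LY6E, UBE2L6 and RNF213. The 10 lower were IFI30, IL10RB, IFNGR2, PIAS1, IRF2, TBK1, MB21D1, TRIM21, ADAR and EIF2AK2. Against sensitive tumors, 8 (19.0%) were higher (JAK2, UBA7, TMEM173, JAK1, UBE2L6, TRIM5, GBP2 and PARP12) and 3 (7.14%) lower (PIAS1, IFNGR2 and ADAR), beside 9.56% and 11.6% of all genes. With median-of-ratios scaling, 5 were lower in resistant than in vehicle tumors in place of 10. At 3 days, 2 were higher (STAT3 and TRIM14) and 4 lower (IFI30, IL10RB, NMI and TRIM5) than in vehicle tumors, which is 4.76% and 9.52% of the 42 beside 3.16% and 12.6% of all genes. NMI, the partner of IFI35, had a difference of -0.61 (adjusted p = 0.0212), no longer called without 6-5 or 6-6. The call of TRIM5 at 3 days was lost in 17 of 23 alternatives, that of RNF213 against vehicle in 15 of 24, and those of EIF2AK2 against vehicle and GBP2 against sensitive tumors in 10 of 24 each. The medians of the 42 were 0.11 for resistant against sensitive, 0.12 for resistant against vehicle and -0.01 for sensitive against vehicle tumors.

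The table holds human genes, and markers of luminal breast cells were high in every tumor, with a summed level of 9484 to 12915 TPM in resistant, 6562 to 8879 TPM in sensitive and 7173 to 11211 TPM in vehicle mice. Most of this sum came from KRT8, KRT18 and KRT19, and the other markers did not follow it. EPCAM had 306 to 348 TPM in resistant and 365 to 436 TPM in vehicle mice. GATA3 had 247 to 302 TPM in resistant and 368 to 459 TPM in vehicle mice. For ESR1 and FOXA1, resistant and vehicle mice overlapped. Markers of white blood cells, 11 genes, summed to 9.10 to 16.0 TPM in resistant, 6.76 to 9.32 TPM in sensitive and 4.40 to 8.13 TPM in vehicle mice, so their sum moved with the groups. The pan-leukocyte gene PTPRC was at most 0.015 TPM and CD3E and CD2 were listed at 0. CD68, also present in lysosomes of other cells, had 3.77 to 10.2 TPM in resistant, 2.01 to 5.16 TPM in sensitive and 1.65 to 3.32 TPM in vehicle mice. LYZ, which encodes the secreted enzyme lysozyme, was higher in every resistant mouse than in any other, at 1.85 to 4.65 TPM in resistant, 0.755 to 1.06 TPM in sensitive and 0.215 to 1.14 TPM in vehicle mice. CSF1R, a receptor of macrophages, went the other way, at 0 to 0.200 TPM in resistant, 0.975 to 1.66 TPM in sensitive and 0.10 to 1.16 TPM in vehicle mice. Mouse 9-7 had the lowest sum of the resistant mice, 9.10 TPM. Of 3 plasmacytoid dendritic cell markers, CLEC4C and LILRA4 were listed at 0 and IL3RA reached 5.95 to 8.22 TPM in resistant, 2.33 to 9.39 TPM in sensitive and 1.21 to 3.70 TPM in vehicle mice. Fibroblast markers, 6 genes, summed to 4.44 to 10.5 TPM in resistant, 5.76 to 8.26 TPM in sensitive and 7.71 to 13.1 TPM in vehicle mice, nearly all from COL1A1, and 4 endothelial markers stayed under 1 TPM. The part of CD68, LYZ, CSF1R, IL3RA and COL1A1 in the results above was not tested. The tumors grew from implanted cells of a human line, so host white blood cells, fibroblasts and vessels would be mouse cells. The levels of these human genes therefore do not measure the number of such cells. Mouse host cells were not analysed here, and in bulk samples fewer cells of a type and less RNA per cell cannot be told apart.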

How the data were processed

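Bulk RNA sequencing libraries, 2 from each of 13 tumors, were grouped by their treatment and time labels into resistant (5 mice), sensitive (3 mice) and vehicle (5 mice). The authors deposited 1 table in TPM, which holds no read counts, so the depth of the 26 libraries is unknown and no counting interval is given. Library sums were 999850 to 999889 TPM, and 16914 to 17662 genes were above 0. Per the submitters' processing notes, FastQC, STAR, HTSeq, RSEM, GRCh38 and GRCm38 were used, with no version or role given. The sources used here do not say how mouse reads were removed or whether counting used strand. The 1 row with no gene name (1.49 to 5.51 TPM) was left out.

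Mice were the replicates. Log2(TPM + 1) was averaged over libraries A and B of a mouse, genes with a mean of at least 1 TPM in at least 3 mice were kept (14079), and a single limma model with the trend option covered 13 mice and 3 comparisons (limma 3.58.1, R 4.3.3). Calls were made at an adjusted p under 0.05 (limma's moderated test, two-sided, with Benjamini-Hochberg adjustment across the 14079 genes of each comparison). Log2 differences are given relative to the median of all genes, -0.05 for resistant versus sensitive, -0.14 for resistant versus vehicle and -0.07 for sensitive versus vehicle; SEs and p-values are as fitted. The model was tested on simulated data.

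The members are a list of names with no threshold on values, but they and the other gene lists were chosen with earlier results of these data known. Every member is named, with the value in every mouse for those called in any comparison; called genes of the pathway list are counted and named. Gene positions are from GENCODE 29 on GRCh38 and promoters from RefSeq. The 24 alternatives changed the pseudocount, filter, scaling, libraries, model or mice included.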

Additional observations from a re-analysis of the deposited data

Results flagged for a closer look

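For each of the 32 tested genes, the resistant and the vehicle mice were searched for a mouse far from the others, by the gap to the nearest mouse over the range of the group, with a limit of 0.71 for 5 mice (Dixon's critical value). The gap and the range were taken in TPM and not on the log2 scale. For normally distributed values, chance passes this limit in about 1 in 20 groups of mice. TPM can be skewed toward high values, so this rate may not hold, and the count below was not tested against it. Of 64 groups, 13 passed it, and in 12 of them the distant mouse was resistant mouse 9-7, always as the highest. The groups share mice, and the genes are not independent of each other. The 3 sensitive mice were not searched.

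In the resistant group, the share of the range taken by the gap below mouse 9-7 was 0.915 for HERC6, 0.822 for PARP9, 0.812 for IFI6 and 0.783 for MX1. It was 0.775 for IFITM1, 0.757 for IFIT5, 0.751 for PARP14 and 0.740 for OAS1. For IFIT1 it was 0.723, for LGALS3BP 0.718, for OAS2 0.716 and for PLSCR1 0.7104. HERC6 had 3.66 TPM in mouse 9-7 and 1.53 to 1.71 TPM in the other resistant mice. MX1 had 6.94 TPM in mouse 9-7 and 0.630 to 2.00 TPM in the others. In the vehicle group, PARP9 was high in mouse 1-5, at 16.9 TPM against 7.87 to 10.1 TPM in the other 4 mice, a share of 0.755.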

How the results depend on the processing

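In the comparisons in which a gene was called, no log2 difference changed sign under any of the 24 alternatives in which the gene was tested. With the same limit, 5 of 12 calls against sensitive tumors, 7 of 10 of resistant against vehicle and 0 of 5 of sensitive against vehicle held in all of them. Genes not called by the main settings passed somewhere in 7, 7 and 3 cases. Leaving out 1 mouse at a time gave 5 to 13 higher and 0 to 1 lower genes for resistant against sensitive tumors, 6 to 10 higher and 1 to 4 lower for resistant against vehicle, and 0 to 1 higher and 0 to 5 lower for sensitive against vehicle. Over all genes, this gave 675 to 1594 higher and 690 to 1977 lower for resistant against sensitive tumors. It gave 1360 to 1694 and 3898 to 4903 for resistant against vehicle, and 99 to 544 and 802 to 1911 for sensitive against vehicle. Without mouse 6-5 there were 5 higher genes for resistant against sensitive and 0 lower for sensitive against vehicle, and without 6-4 TRIM25 was no longer lower against sensitive tumors. Without 6-5, all genes had 675 higher in place of 1346 and 802 lower in place of 1767 in these 2 comparisons. For the pathway genes outside the 42, an addition made after seeing the data, the alternatives gave 4 to 11 higher and 1 to 4 lower for resistant against sensitive, 7 to 13 higher and 5 to 12 lower for resistant against vehicle, and 1 to 3 higher and 2 to 12 lower for sensitive against vehicle tumors.

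With weights per mouse, 17 genes were higher in resistant than in sensitive tumors in place of 11. All genes then had 2036 higher in place of 1346. Resistant against vehicle had 1 lower gene by the main settings, 2 with A libraries alone and 3 with weights per mouse. All genes had 4570, 4092 and 5145 lower, in the same order. Sensitive against vehicle had 1 higher gene in place of 0 with median-of-ratios scaling, quantile normalization, A libraries alone or weights per mouse. All genes had 771, 938, 243 and 1023 higher there, in place of 445. The 5 lower genes of sensitive against vehicle became 3 with no filter, with median-of-ratios scaling or with only the 2 groups compared, and 2 with quantile normalization. All genes had 1606, 1062, 1281 and 989 lower there, in place of 1767. The cause was not tested. With all 26 libraries and the letters A and B as a replicate block, there were 14 higher and 1 lower genes for resistant against sensitive, 9 higher and 3 lower for resistant against vehicle, and 1 higher and 4 lower for sensitive against vehicle. In the same order, all genes had 1559 higher and 1909 lower, 1614 and 4696, and 607 and 2147. The letters pair no mice across groups, so no paired analysis of mice was possible because no label ties a mouse of one group to a mouse of another.

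Depth is unknown, so genes near 1 TPM or below, such as IFIT2, IFIT3 and IFI44, have no stated counting error, and the TPM + 1 scale compresses them. Groups of 3 to 5 mice limit what can pass the test.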

Other observations

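Among all 14079 genes tested, IFI6 had the widest gap between mouse 9-7 and the next highest of the 13 mice, 1.83 on the log2(TPM + 1) scale. IFITM1 followed among the interferon response genes with 1.598, MX1 with 1.44, IFIT1 with 1.41 and IFI27 with 1.38. For IFI27 the 2 libraries of mouse 9-7 differed, at 21.8 and 2.28 TPM. Outside the interferon response genes, the 10 widest gaps ran down to 0.98, and were chosen by that order after the values were seen. The 10 included CCL28, a chemokine of mucosal surfaces, at 19.5 TPM in mouse 9-7 and at most 7.51 TPM in any other, and LGALS9, which encodes galectin-9, at 5.63 and at most 1.97 TPM. The rest were C15orf48, PYDC1, CGA, KRT81, SYNGR3, PLEKHD1 and TNFAIP2.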
